A study of Mus musculus with 6 samples.

Results

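The data described here are the RNA levels of 10 genes through which lung endothelial cells (ECs) set vascular tone: Nos3, Edn1, Ednra, Ece1, Ace, Ptgis, Ptgs1, Ptgs2, Cav1 and Cav2. They were chosen by name for their known place in the nitric oxide, endothelin and prostacyclin pathways. The rule uses no measured value, but earlier results of these data were known when the list was made. All 10 were found among the 24063 gene symbols of the deposited count files, as 14 of 33068 RefSeq transcripts. The counts of a gene's transcripts were summed.

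ECs relax the smooth muscle around them with nitric oxide, which Nos3 (endothelial nitric oxide synthase) makes from arginine, and with prostacyclin, which cyclooxygenases (Ptgs1, Ptgs2) and prostacyclin synthase (Ptgis) make from arachidonic acid. They constrict it with endothelin-1, the product of Edn1, which endothelin converting enzymes such as Ece1 cut from its precursor and which acts on the receptors Ednra and Ednrb. Angiotensin converting enzyme (Ace), abundant on lung capillaries, makes angiotensin II and breaks down bradykinin. Caveolins (Cav1, Cav2) form the caveolae, membrane pits in which Nos3 is held in an inactive state.

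RNA was taken from ECs that had been pulled from male C57BL6 mouse lungs, given as 8 weeks old in the labels, with magnetic beads against CD31, a surface protein of ECs. One group of mice had a sham operation and the other a left unilateral pneumonectomy (PNX), the removal of the left lung, after which the remaining lobes grow; both were sampled on day 7, and the labels list no other treatment or genetic change. Each group had 3 libraries, each pooled from 2 mice, so that variation between single mice was not measured. The study's methods give an older age at surgery than the labels.

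The libraries held 29526989 to 81282871 counts. In each group replicates 1 and 2 came from an earlier deposit and replicate 3 from a later one, which had the fewest counts. Replicates 1 and 2 of a group differed little beyond counting noise (chi-square per degree of freedom of 1.75 in sham and 1.57 in PNX, against 67.9 to 86.4 for pairs with replicate 3), and they were therefore summed and counted as 1 sample. Each group thus had 2 samples, 1 per deposit, and all means and SDs below are over these 2 samples. Levels are given in CPM, counts scaled to a common library total, after TMM scaling, which sets aside the most deviating genes.

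PNX was compared with sham by edgeR's quasi-likelihood test over 16598 genes, with p-values adjusted over all of them. The comparison was fitted without and with the deposit as a block, which compares PNX with sham inside each deposit. The block leaves 1 residual degree of freedom, so the test draws the variance of a gene largely from the other genes. The blocked SE and p-value of a gene therefore do not measure how far its own deposits disagree. The words rose and fell with the block refer to this test. To be called, a gene needed an adjusted p below 0.01 together with a log2 fold change beyond 1 in either direction. These are the thresholds of the study's methods. Without the block 0 genes (0.0%) were called, although 2076 had an unadjusted p under 0.05. The other tools differed, since limma-voom called 0 and DESeq2 called 587 on the same 4 samples. With the block 849 genes (5.12%) were called. At an adjusted p under 0.05 with the block and no minimum fold, 11.5% of genes were higher and 10.1% lower after PNX. In 36.5% of genes all 3 PNX libraries lay on one side of all 3 sham libraries. An exact permutation test cannot go below p = 0.333 with 2 samples a group, or 0.1 with 3 libraries, so none was used.

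Of the 10 genes, 0 were called without the block and 1, Edn1, was called with it, beside 0.0% and 5.12% of all genes tested. At an adjusted p under 0.05 with the block, 11.5% of all genes tested rose and 10.1% fell. Among the 10, Nos3, Ptgis and Ptgs1 rose after PNX and Edn1, Ece1 and Cav2 fell, 6 of 10 genes. None of these 6 passed 0.05 without the block, where the lowest adjusted p was 0.184, for Ptgis. For Nos3, Edn1, Ednra, Ece1, Ptgis, Ptgs1 and Ptgs2 the change in each deposit lay further from the blocked value than the blocked SE. For Ace and Cav1 it lay within that SE, and for Cav2 it was about as far. The blocked SE thus understates the disagreement between deposits in most of the 10 genes. The libraries of the groups did not overlap in 7 of 10 genes, beside 36.5% of all genes tested. Nos3, Ptgis, Ptgs1 and Ptgs2 were higher in PNX and Edn1, Ece1 and Ace lower. The groups overlapped in Ednra, Cav1 and Cav2. The median log2 fold change of all genes tested was −0.01.

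**Figure D1:**
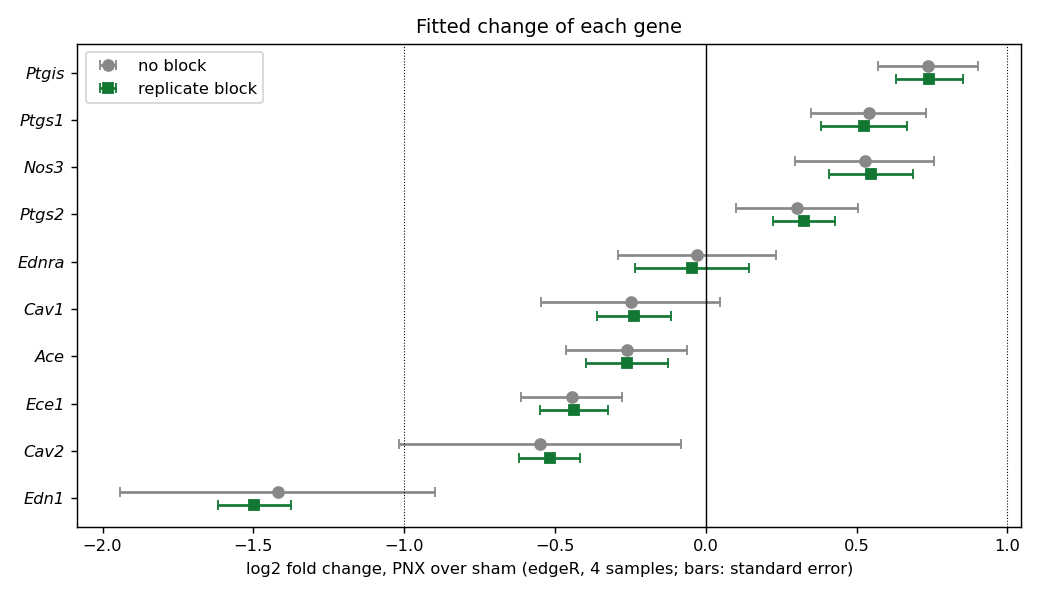
Log2 fold change of each of the 10 genes, PNX over sham, fitted over 4 samples without (grey circles) and with (green squares) the replicate block, with bars for the standard error and dotted lines at a log2 fold change of 1 in either direction. The estimates differ little between the fits, while the error of Edn1 shrinks from 0.52 to 0.12. Edn1 at −1.42 and −1.50 is the only gene beyond a dotted line. The blocked error is drawn largely from other genes and does not show how far the deposits disagree.

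The label of the cells was compared with the markers of ECs and of the other cells that bead isolation from lung can carry along. All 10 endothelial markers were present, with a summed level of 9167 to 11390 CPM in the sham libraries and 8491 to 9477 CPM in PNX, and with the block 0 of 10 rose and 1 (Tek) fell at an adjusted p under 0.05. Pecam1, which encodes CD31, was at 2512 and 2016 CPM in sham replicates 1 and 3 and at 2446 and 2124 CPM in the same PNX replicates. The 5 markers of general capillary ECs, a kind of alveolar capillary EC, all fell with the block, from a summed 2095 to 2851 CPM in sham to 1304 to 1734 CPM in PNX. Of the 7 markers of aerocytes, another kind, 3 fell and 0 rose with the block. Their sums overlapped, at 1387 to 2041 CPM in the sham libraries and 1550 to 2053 CPM in PNX. RNA of other cells was plain: fibroblast markers summed to 1645 to 1858 CPM in the sham libraries and 4465 to 5612 CPM in PNX, with 8 of 11 higher and 1 lower, and alveolar type 2 markers to 5292 to 5678 CPM in the sham libraries and 2008 to 3363 CPM in PNX, with 6 of 6 lower. No marker found among the gene symbols was at 0 in any library. Muc16, Siglecf and Ly6g were not found by these names, which left 6 of 7 mesothelial, 9 of 10 macrophage and 4 of 5 neutrophil markers. In such bulk libraries, fewer cells of a type and less RNA per cell cannot be told apart.

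**Figure D2:**
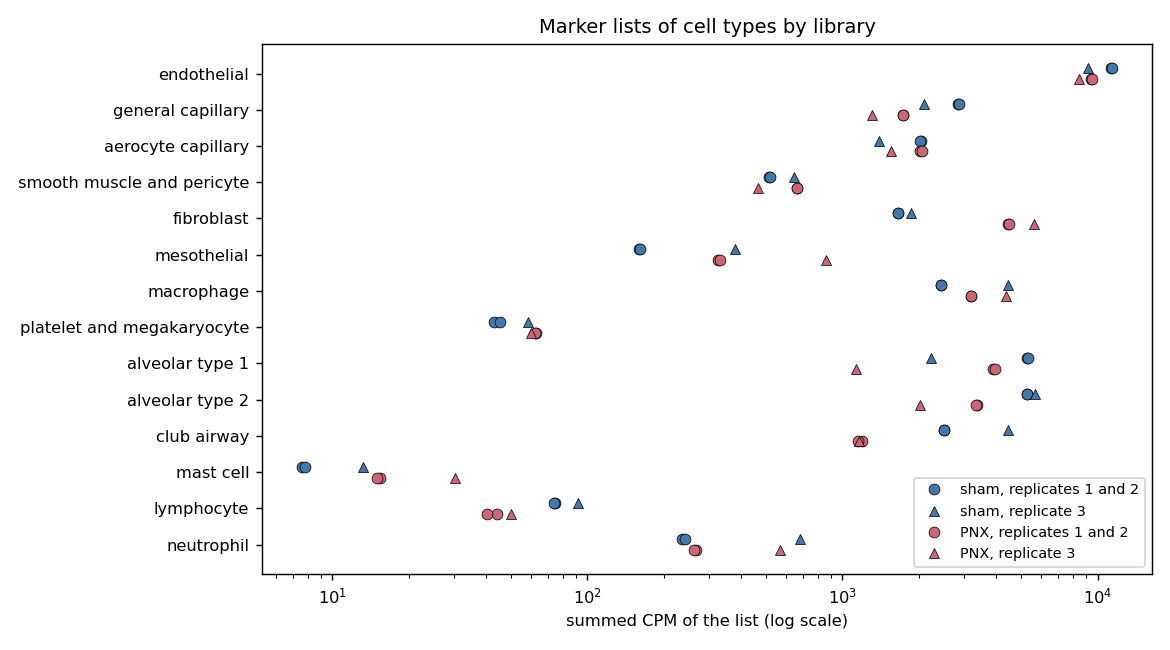
Summed CPM of 14 lists of cell type markers in each of the 6 libraries, on a log axis, with circles for replicates 1 and 2, triangles for replicate 3, blue for sham and red for PNX. Endothelial markers have the highest summed CPM in every library. The sums are not per length and the lists differ in size, so they do not rank the cell types by amount. Fibroblast, mast cell and, narrowly, platelet markers lie further right in PNX, as do mesothelial markers inside each deposit. Club, alveolar type 2, general capillary and lymphocyte markers lie further left, as do alveolar type 1 and endothelial markers inside each deposit.

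Levels of different genes were compared per length, as the deposited TPM, counts divided by transcript length and scaled to a common total. Ace and Cav1 stood far above the rest in sham, at 2555 ± 184 and 2202 ± 618 TPM (mean ± SD, n = 2). The 2 transcripts of Cav1, and NM_001281819 and NM_207624 of Ace, had nearly the same counts in each library (141815 and 141573 for the Ace pair in sham replicate 1, beside 88951 for NM_009598), so a read seems to have been counted on every transcript it fits. Taking only the strongest transcript gave 869 ± 58.8 TPM for Ace and 1121 ± 314 TPM for Cav1, whose sham ranges overlapped. Cav2 followed at 543 ± 241 TPM, or 327 ± 184 TPM for its strongest transcript, and that lower value overlapped Ece1 at 281 ± 38.5 TPM.

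Below these came Edn1 at 168.0 ± 66.4, Ptgis at 76.3 ± 12.1, Ptgs2 at 52.5 ± 12.6, Ptgs1 at 40.2 ± 4.75, Nos3 at 26.8 ± 7.71 and Ednra at 24.8 ± 2.82 TPM in sham. In this order Ptgs2 and Ptgs1 overlapped over libraries, as did Nos3 and Ednra, while each other neighbouring pair was apart. Thus the gene for nitric oxide synthase itself was among the lowest of the 10 in sham, and the gene for endothelin-1 was above it in every sham library. After PNX, Edn1 moved from the fifth to the seventh place, at 62.4 ± 37.4 TPM, below Ptgis (126.8 ± 6.35 TPM) and Ptgs2 (64.6 ± 4.45 TPM). The PNX libraries of Edn1 overlapped those of Ptgs2 and of Ptgs1 (58.3 ± 10.9 TPM), so the places of these genes in PNX are not set apart by their spread. Nos3 and Ednra, which overlapped in sham, were apart in PNX, at 38.6 ± 0.246 and 24.1 ± 7.74 TPM.

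**Figure D3:**
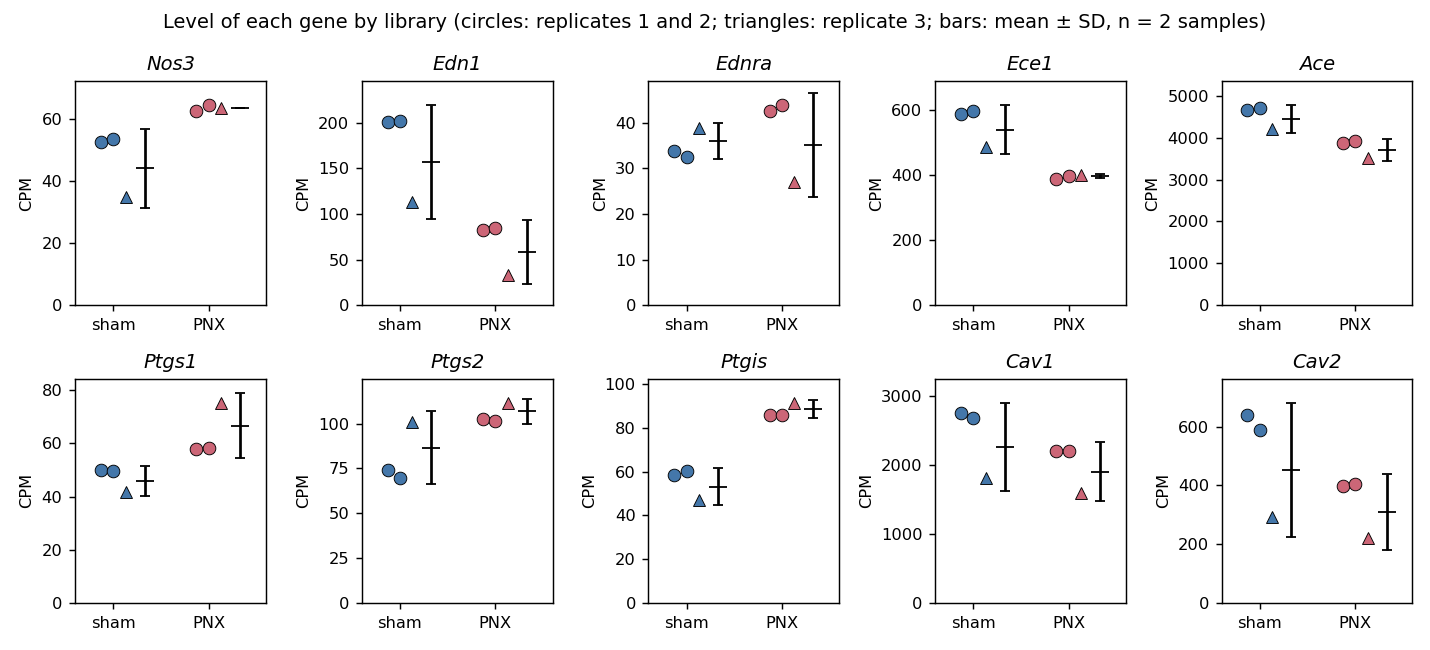
CPM of each of the 10 genes in each library on linear axes from 0, with circles for replicates 1 and 2, triangles for replicate 3, and black bars for the mean ± SD of the 2 samples of a group. The groups do not overlap for Nos3, Edn1, Ece1, Ace, Ptgs1, Ptgs2 and Ptgis, and replicate 3 stands apart from replicates 1 and 2 in sham for Edn1, Cav1 and Cav2.

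Nos3, the source of nitric oxide in ECs, lies on chromosome 5 from 24364810 to 24384474 on the plus strand (GRCm38, GENCODE vM21). Its level was 52.5, 53.6 and 35.0 CPM in sham replicates 1, 2 and 3 and 62.4, 64.4 and 63.5 CPM in PNX replicates 1, 2 and 3. All 3 PNX libraries lay above all 3 sham libraries, and the PNX libraries were close together while sham replicate 3 was low. The means were 44.0 ± 12.8 and 63.5 ± 0.0824 CPM, a log2 fold change of 0.53 (SE 0.23, adjusted p = 0.460) without the block. With the block Nos3 rose by 0.55 (SE 0.14, adjusted p = 0.0314). The change was 0.26 within the earlier deposit and 0.86 within the later, each further from 0.55 than that SE. Nos3 passed narrowly, as the blocked adjusted p was 0.0539 without PNX replicate 1 and 0.0522 without sham replicate 1. The unblocked log2 fold change was 0.27 without sham replicate 3. Nos3 overlaps Atg9b on the other strand, which was at 2.29 to 3.38 CPM, and the use of strand in counting is not given in the sources used here.

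Of 26 other genes of the nitric oxide pathway, 25 were tested, and with the block 7 rose and 1 fell at an adjusted p under 0.05. Of all genes tested, 11.5% rose and 10.1% fell in the same way. Their median log2 fold change without the block was 0.08, and 0 were called there. Ass1 (argininosuccinate synthase), which renews the arginine that Nos3 uses, was at 19.7, 19.7 and 21.5 CPM in the sham libraries and 32.4, 32.3 and 38.9 CPM in PNX, with no overlap. Its log2 fold change was 0.79 (adjusted p = 0.163, and 0.00146 with the block). Ddah1, which breaks down methylarginines that inhibit nitric oxide synthases, went from 45.5, 44.5 and 37.3 CPM to 72.2, 73.2 and 73.3 CPM, a log2 fold change of 0.82 (adjusted p = 0.137, and 0.00148 with the block).

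Klf2, a transcription factor that shear stress induces and that raises Nos3, had the highest TPM of the list in sham. It was the gene that fell, at 363, 374 and 275 CPM in the sham libraries and 226, 228 and 225 CPM in PNX, so Klf2 and Nos3 moved in opposite directions (Klf2 log2 fold change −0.51, adjusted p = 0.386, and 0.0245 with the block). Outside the naming rule, and chosen after its values were seen, Nos2 (inducible nitric oxide synthase) ranged from 7.56 CPM in sham replicate 1 to 17.7 CPM in PNX replicate 3 and rose with the block (log2 fold change 0.71, adjusted p = 0.00428, and 0.419 without it). Nos2 is a gene of activated macrophages too, and 7 of 9 macrophage markers rose with the block (summed 2429 to 4442 CPM in the sham libraries and 3183 to 4357 CPM in PNX); their part in the result was not tested. Nos1 had no count in any library.

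The receptor of nitric oxide is soluble guanylate cyclase, whose subunits Gucy1a1 and Gucy1b1 appear in the files as Gucy1a3 and Gucy1b3. Gucy1a3 was at 112, 110 and 126 CPM in the sham libraries and 134, 132 and 84.9 CPM in PNX. Gucy1b3 was at 166, 165 and 154 CPM in the sham libraries and 181, 184 and 85.0 CPM in PNX. For both subunits PNX was above sham in the earlier deposit and below it in the later one, and neither passed 0.05 with the block (adjusted p = 0.605 and 0.273). Smooth muscle cells and pericytes hold much of this enzyme, and the sum of their 14 markers moved the same way, from 516 and 521 CPM to 666 and 663 CPM in the earlier deposit and from 645 to 468 CPM in the later one. Single markers differed, as Rgs5 was higher in PNX in both deposits, and with the block 1 of the 14 (Rgs5) rose and 0 fell; the part of these cells in the result was not tested.

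Among the endothelin genes, Edn1 had the largest change of the 10 genes. It lies on chromosome 13 from 42301476 to 42307990 on the plus strand. Its promoter is shown because it is the only one of the 10 genes called; RefSeq (GRCm38.p6) gives 1 start, and the stretch is chr13:42301226-42301505, plus strand, 250 bases before the start to 30 after it, with the motif found in capitals.
Edn1: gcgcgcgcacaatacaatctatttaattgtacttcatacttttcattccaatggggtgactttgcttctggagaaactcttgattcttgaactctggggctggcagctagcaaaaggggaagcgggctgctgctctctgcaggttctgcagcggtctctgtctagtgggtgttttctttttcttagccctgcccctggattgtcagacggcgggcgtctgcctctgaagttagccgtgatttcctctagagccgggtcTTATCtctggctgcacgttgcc
The whole window, which runs to 50 bases after the start, was searched on both strands for TATAAA (the core promoter element), GATAA (sites of a family of zinc finger factors), TGANTCA (AP-1), CACGTG (E-box) and GGGCGG (Sp and KLF factors), motifs chosen after the sequences were seen. It held 1 of the 5, GATAA, read as TTATC on the printed strand and starting at base 9 counted from the RefSeq start. Whether these cells use that start was not tested, and sequence beyond the window was not searched. Of 32851 promoter windows of this length, 25.4% held GATAA, 13.6% TATAAA, 7.81% TGANTCA, 7.15% CACGTG and 35.7% GGGCGG. A match describes the letters only.

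Edn1 was at 200.5, 201.4 and 112.6 CPM in the sham libraries and at 82.6, 84.3 and 33.5 CPM in the PNX libraries, from 15990, 14297, 3834, 6201, 5573 and 992 counts. Every PNX library was below every sham library, and in both groups replicate 3 was the lowest. The means were 156.8 ± 62.4 and 58.5 ± 35.3 CPM, a log2 fold change of −1.42 (SE 0.52, adjusted p = 0.379) without the block, or 2.67-fold lower. With the block Edn1 fell by 1.50 on the log2 scale (SE 0.12, adjusted p = 0.000245), or 2.82-fold, with −1.27 within the earlier deposit and −1.75 within the later. It was called in 9 of 9 blocked edgeR settings. All of these rest on the same 4 samples, whole or without replicate 1 or 2 of a group, so they are not independent checks. Without the block and without PNX replicate 3 the log2 fold change was −0.91, and without sham replicate 3 it was −1.76.

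The fall of Edn1 exceeded that of the endothelial markers. Per 1000 CPM of the 10 summed markers, Edn1 stood at 17.8, 17.7 and 12.3 CPM in the sham libraries and 8.80, 8.90 and 3.95 CPM in PNX, again with no overlap and with a log2 ratio of −1.32. Markers of other cells also fell, and the club airway markers fell about as far as Edn1. Their sum gave log2 ratios of −1.09 in the earlier deposit and −1.94 in the later, with 5 of 5 lower with the block. The part of other cells in the fall of Edn1 was not tested. The ratio of Edn1 to Nos3 counts, which sets a constrictor's gene against a relaxant's gene, was 3.82, 3.76 and 3.22 in sham and 1.32, 1.31 and 0.528 in PNX. This ratio compares libraries with each other and not the levels of the genes, since it is not per length.

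Ece1 is on chromosome 4 from 137862237 to 137965229, plus strand. Sham libraries were at 587.8, 595.3 and 484.6 CPM and PNX libraries at 386.2, 396.6 and 399.3 CPM, so that the groups were apart and the PNX libraries were close together. The means were 538 ± 75.6 and 395 ± 5.61 CPM. The log2 fold change was −0.44 (SE 0.17, adjusted p = 0.391) without the block, and with it Ece1 fell by 0.44 (SE 0.11, adjusted p = 0.0327). Relative to the endothelial markers the gap narrowed, to 52.0 to 52.9 CPM per 1000 in sham and 41.1 to 47.0 CPM per 1000 in PNX, without overlap. The count ratio of Edn1 to Ece1 was 0.341, 0.338 and 0.232 in sham and 0.214, 0.213 and 0.0840 in PNX, lower in every PNX library than in any sham library.

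Ednra, the receptor through which endothelin-1 constricts smooth muscle, is on chromosome 8 from 77663031 to 77724464, minus strand. It was at 33.8, 32.5 and 38.8 CPM in the sham libraries and 42.6, 43.8 and 27.1 CPM in PNX. The PNX libraries lay on both sides of the sham libraries, with replicates 1 and 2 above and replicate 3 below. The log2 fold change was −0.03 (SE 0.26, adjusted p = 0.987) and −0.04 with the block (SE 0.19, adjusted p = 0.895), which joins 0.38 in the earlier deposit with −0.52 in the later one. Its sign turned with the 6 libraries as separate replicates (0.13), and without sham replicate 3 (0.10) or PNX replicate 3 (0.27). The summed smooth muscle and pericyte markers given above moved likewise in each deposit, and their part in the result was not tested.

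Ednrb, which on ECs clears endothelin-1 and evokes nitric oxide release, stood far above Ednra per length, at 312 TPM against 24.8 TPM in sham. Its level was 538, 520 and 374 CPM in the sham libraries and 347, 345 and 250.1 CPM in PNX, without overlap. Ednrb fell with the block (log2 fold change −0.60, adjusted p = 0.00494, and 0.458 without it), and in sham it had the highest TPM of the 7 other endothelin genes, 6 of which were tested. With the block 2 of the 6 rose and 2 fell, beside 11.5% and 10.1% of all genes tested, and their median log2 fold change without it was −0.48. Mme (neprilysin), a peptidase that degrades endothelin-1, was at 173, 170.4 and 157 CPM in the sham libraries and 141, 139 and 68.7 CPM in PNX and fell with the block (log2 fold change −0.73, adjusted p = 0.0317, against −0.65 and 0.562 without it). Ece2, another converting enzyme, was at 7.27, 7.18 and 7.85 CPM in the sham libraries and 10.5, 9.91 and 10.6 CPM in PNX and rose with the block (log2 fold change 0.47, adjusted p = 0.0315, and 0.377 without it).

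The gene called with the block in this list was Ecel1, a homologue of the converting enzymes, at 0.0251 and 0.0588 CPM in sham replicates 1 and 3 and 0.720 and 1.22 CPM in the same PNX replicates, a low level outside the naming rule that was picked after its values were seen. The count ratio of Edn1 to Ednrb was 0.373, 0.387 and 0.301 in sham and 0.238, 0.245 and 0.134 in PNX. That of Ednra to Ednrb was 0.0629, 0.0625 and 0.104 in sham and 0.123, 0.127 and 0.108 in PNX. Ligand counts were thus lower relative to Ednrb in every PNX library. Ednra counts were higher relative to Ednrb in every PNX library, but in the later deposit only slightly, at 0.104 in sham and 0.108 in PNX.

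Ace, which faces the blood on the capillary surface, lies on chromosome 11 from 105967945 to 105989964, plus strand. Its summed transcripts were at 4668, 4702 and 4217 CPM in the sham libraries and 3885, 3913 and 3522 CPM in PNX. The groups did not overlap, and replicate 3 was the lowest library of each. The means were 4451 ± 331 and 3710 ± 267 CPM, and the log2 fold change of −0.26 did not pass 0.05 without (SE 0.20, adjusted p = 0.688) or with the block (SE 0.14, adjusted p = 0.216). Per 1000 CPM of endothelial markers Ace hardly differed, at 413, 413 and 460 CPM in the sham libraries and 414, 413 and 415 CPM in PNX, with overlap. Its 3 transcripts gave log2 TPM ratios of −0.28 to −0.24 within the earlier deposit and −0.26 within the later.

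The antisense gene Gm11651, which overlaps Ace, was at 226 to 251 CPM in the sham libraries and 194 to 209 CPM in PNX. The count ratio of Ace to Gm11651 stayed between 18.2 and 18.8 in all 6 libraries, and without knowledge of strand use the reads of the pair cannot be told apart.

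Of 15 other genes of the renin, angiotensin and kinin systems 12 were tested. With the block 3 were higher and 1 lower at an adjusted p under 0.05, beside 11.5% and 10.1% of all genes tested. Their median log2 fold change without the block was 0.11. Cma1, mast cell chymase, which can make angiotensin II without Ace, went from 0.389, 0.423 and 0.382 CPM in sham to 4.28, 3.77 and 6.46 CPM in PNX and was called with the block (log2 fold change 3.58, adjusted p = 0.000132, against 3.72 and 0.0738 without it). Cma1 is itself a mast cell marker, and of the 5 others Cpa3, Tpsb2 and Mcpt4 rose with the block, Ms4a2 fell and Fcer1a did not pass. The 6 summed to 7.64 to 13.2 CPM in the sham libraries and 15.0 to 30.2 CPM in PNX, and the part of mast cells was not tested. Enpep, which degrades angiotensin II, was at 80.7, 78.4 and 74.9 CPM in the sham libraries and 71.6, 72.3 and 41.1 CPM in PNX (adjusted p = 0.0646 with the block). Agtr1a, the main angiotensin II receptor, was at 6.14, 5.87 and 6.88 CPM in the sham libraries and 8.18, 7.82 and 6.32 CPM in PNX, with overlap (adjusted p = 0.492 with the block). Atp6ap2, the prorenin receptor and the gene of highest TPM in the list, overlapped between groups at 62.2 to 69.7 CPM in the sham libraries and 65.0 to 72.0 CPM in PNX.

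In the prostacyclin pathway Ptgs1 and Ptgs2 carry out the same step, and Ptgs1 is the form most cells keep on while Ptgs2 is induced by growth factors and cytokines. Their promoters are shown side by side because both isoenzymes were higher in every PNX library than in any sham library. The stretches are chr2:36230176-36230455 for Ptgs1 and chr1:150099781-150100060 for Ptgs2, both on the plus strand and of the same span as that of Edn1, with motifs in capitals.
Ptgs1: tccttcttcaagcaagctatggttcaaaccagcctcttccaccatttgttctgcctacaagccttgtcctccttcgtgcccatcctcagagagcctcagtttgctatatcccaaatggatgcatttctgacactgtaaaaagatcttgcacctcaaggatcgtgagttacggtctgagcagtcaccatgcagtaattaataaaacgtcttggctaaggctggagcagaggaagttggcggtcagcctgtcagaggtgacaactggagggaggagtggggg
Ptgs2: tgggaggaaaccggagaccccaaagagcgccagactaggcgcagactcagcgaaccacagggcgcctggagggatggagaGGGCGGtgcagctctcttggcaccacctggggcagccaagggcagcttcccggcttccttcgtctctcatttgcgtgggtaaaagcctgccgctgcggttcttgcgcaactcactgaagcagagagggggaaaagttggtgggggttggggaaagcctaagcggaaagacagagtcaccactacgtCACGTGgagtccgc
The window of Ptgs1 held none of the 5 motifs. That of Ptgs2 held GGGCGG starting 170 bases before the start and CACGTG starting 17 bases into the transcript. The GC content of the whole windows was 50.7% for Ptgs1 and 59.3% for Ptgs2, with a median of 52.7% over all windows and 51.3% for Edn1.

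Ptgs1 (chromosome 2, 36230426 to 36252272, plus strand) was at 49.9, 49.7 and 41.9 CPM in the sham libraries and 58.0, 58.3 and 75.2 CPM in PNX. The lowest PNX library was above the highest sham library, and replicate 3 was the lowest sham and the highest PNX library. The log2 fold change was 0.54 (SE 0.19, adjusted p = 0.357) without the block. With the block Ptgs1 rose by 0.53 (SE 0.14, adjusted p = 0.0383), with 0.22 within the earlier deposit and 0.85 within the later, and the blocked adjusted p was 0.0683 without PNX replicate 1, 0.0551 without sham replicate 1 and 0.0581 with DESeq2's size factors. Without PNX replicate 3 the unblocked log2 fold change was 0.35. Platelets are rich in Ptgs1, and their 7 markers summed to 43.2 to 58.6 CPM in the sham libraries and 59.9 to 62.9 CPM in PNX. That sum gave log2 ratios of 0.50 in the earlier deposit and 0.03 in the later. With the block 2 of the 7 markers were higher and 0 lower. The part of platelets in the result was not tested.

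Ptgs2 (chromosome 1, 150100031 to 150108227, plus strand) was at 74.4, 69.7 and 101.1 CPM in the sham libraries and 102.5, 101.5 and 111.6 CPM in PNX. The groups just did not overlap, since sham replicate 3 reached almost the level of PNX replicate 2. The log2 fold change was 0.30 (SE 0.20, adjusted p = 0.645), and 0.32 with the block (SE 0.10, adjusted p = 0.0632), so Ptgs2 did not pass the test in either fit. Without sham replicate 3 the unblocked value was 0.58. Per 1000 CPM of endothelial markers its groups overlapped. The count ratio of Ptgs2 to Ptgs1 overlapped too, at 1.40 to 2.42 in sham and 1.48 to 1.77 in PNX.

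Ptgis (chromosome 2, 167191805 to 167240604, minus strand), the enzyme that completes prostacyclin, had the largest rise of the 10 genes. Its level was 58.3, 60.2 and 47.1 CPM in the sham libraries and 86.0, 85.6 and 91.4 CPM in PNX. The gap between the groups was wide against the spread in either of them. The means were 53.2 ± 8.60 and 88.6 ± 3.99 CPM, and the log2 fold change was 0.74 (SE 0.17, unadjusted p = 0.00757, adjusted p = 0.184), a 1.67-fold difference. With the block Ptgis rose by 0.74 (SE 0.11, adjusted p = 0.00436), with 0.53 within the earlier deposit and 0.96 within the later, which is under the fold needed for a call. It passed 0.05 in 9 of 9 blocked settings, which share their samples, at an adjusted p of 0.00405 to 0.0161.

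Per 1000 CPM of endothelial markers Ptgis was at 5.13 to 5.29 CPM in the sham libraries and 9.03 to 10.8 CPM in PNX, a log2 ratio of 0.93. Fibroblasts and smooth muscle cells also make prostacyclin synthase. The summed fibroblast markers were higher in PNX in both deposits, with 8 of 11 higher and 1 (Pdgfra) lower with the block. The summed smooth muscle and pericyte markers were higher in the earlier deposit and lower in the later, with log2 ratios of 0.36 and −0.46. The part of these cells in the result was not tested. The count ratio of Ptgis to Nos3 overlapped between the groups, at 1.11 to 1.35 in sham and 1.33 to 1.44 in PNX.

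Of 21 other prostanoid genes 20 were tested, and with the block 4 rose and 0 fell, beside 11.5% and 10.1% of all genes tested. Their median log2 fold change without the block was 0.24, the highest of the 5 pathways. Pla2g4a, the cytosolic phospholipase that frees arachidonic acid, was at 12.3, 12.2 and 16.5 CPM in the sham libraries and 19.3, 19.4 and 25.9 CPM in PNX and rose with the block (log2 fold change 0.65, adjusted p = 0.00361, and 0.380 without it). Ptger3, a receptor of prostaglandin E, went from 0.614, 0.718 and 0.999 CPM to 2.81, 2.98 and 3.45 CPM and was called with the block (log2 fold change 1.98, adjusted p = 0.00138, against 1.96 and 0.126 without it). Hpgds, which makes prostaglandin D in mast cells and other blood cells, was called as well, at 0.865, 0.916 and 1.76 CPM in the sham libraries and 2.19, 2.42 and 4.12 CPM in PNX (log2 fold change 1.30, adjusted p = 0.00533, and adjusted p = 0.402 without the block). The summed mast cell markers given above were higher in PNX inside each deposit, though Ms4a2 fell with the block, and their part in this result was not tested.

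Downstream of the cyclooxygenases, the enzymes that compete with Ptgis did not all move with it. Tbxas1, thromboxane synthase, was at 12.5, 12.1 and 24.0 CPM in the sham libraries and 20.9, 21.8 and 33.3 CPM in PNX, with overlap, and rose with the block (log2 fold change 0.64, adjusted p = 0.00703, against 0.59 and 0.647 without it). Tbxas1 is a macrophage and platelet gene, both marker lists of which are given above; their part was not tested. Ptges, which makes prostaglandin E, stayed at 17.4 to 18.2 CPM in the sham libraries and 17.0 to 17.4 CPM in PNX (log2 fold change −0.05, adjusted p = 0.739 with the block). Hpgd, which inactivates prostaglandins and had the highest TPM of the list, was at 822, 809 and 489 CPM in the sham libraries and 822, 832 and 486 CPM in PNX, with a log2 ratio of PNX to sham of 0.02 within the earlier deposit and −0.01 within the later. Ptgir, the prostacyclin receptor, was at 5.20, 4.73 and 8.78 CPM in the sham libraries and 9.01, 9.62 and 9.20 CPM in PNX and did not pass (log2 fold change 0.44, adjusted p = 0.670, and 0.111 with the block).

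**Figure D4:**
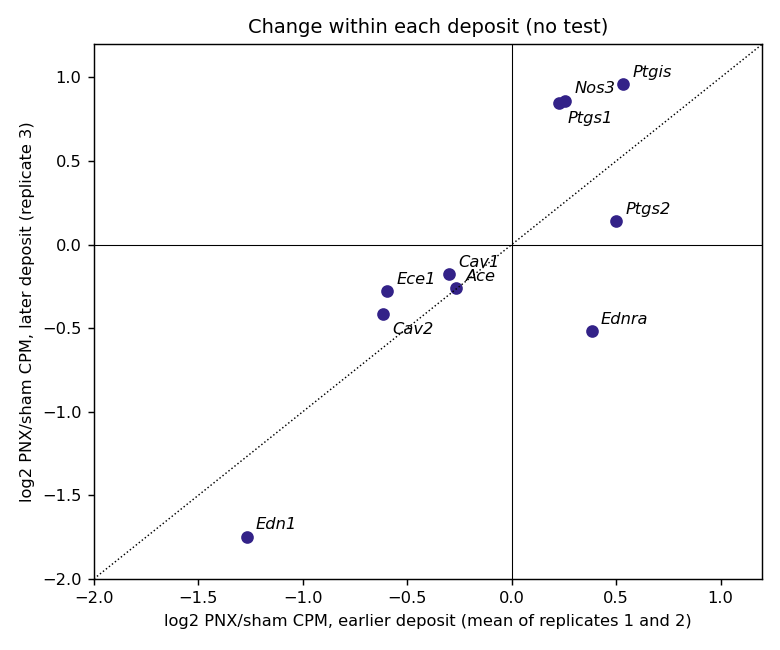
Log2 ratio of PNX to sham CPM for each of the 10 genes in the earlier deposit (horizontal axis, mean of replicates 1 and 2) and in the later deposit (vertical axis, replicate 3), with a dotted line where both are equal. For 9 genes the ratio has the same sign in both deposits, and Ednra, at 0.38 and −0.52, is the exception.

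The caveolin genes Cav1 and Cav2 are neighbours on chromosome 6, Cav2 from 17281185 to 17289115 and Cav1 from 17306335 to 17341452, both on the plus strand and both overlapped by the antisense gene Gm15581. The promoter of Cav2 is given because Cav2 and not Cav1 passed the blocked test. It is chr6:17280935-17281214, plus strand, with the same span and capitals.
Cav2: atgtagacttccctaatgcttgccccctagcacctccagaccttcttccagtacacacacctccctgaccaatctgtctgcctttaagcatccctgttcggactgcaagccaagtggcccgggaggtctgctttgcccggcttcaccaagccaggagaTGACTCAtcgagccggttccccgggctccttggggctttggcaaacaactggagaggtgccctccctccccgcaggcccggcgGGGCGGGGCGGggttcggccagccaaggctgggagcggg
It held TGACTCA, a form of TGANTCA, starting 92 bases before the start, and GGGCGG at 9 and at 4 bases before it, which overlap by a base. Its GC content over the whole window was 64.3%.

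Cav1, which builds caveolae and binds Nos3, was at 2744, 2673 and 1803 CPM in the sham libraries and 2199, 2205 and 1596 CPM in PNX. The groups overlapped, because sham replicate 3 was below PNX replicates 1 and 2, while PNX was below sham inside each deposit. The means were 2256 ± 640 and 1899 ± 429 CPM, and the log2 fold change was −0.25 (SE 0.30, adjusted p = 0.814), and −0.24 with the block (SE 0.12, adjusted p = 0.219). It was −0.50 without sham replicate 3 and −0.03 without PNX replicate 3, both without the block. Per 1000 CPM of endothelial markers the log2 ratio was −0.05. Both of its 2 transcripts gave a log2 TPM ratio of −0.18 in the later deposit.

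Cav2, which joins Cav1 in caveolae, was at 641.5, 588.4 and 292.5 CPM in the sham libraries and 399.4, 403.5 and 219.4 CPM in PNX. As for Cav1, the deposits differed more than the groups did, and sham replicate 3 was below the PNX libraries of the earlier deposit. The log2 fold change was −0.55 (SE 0.47, adjusted p = 0.727), and with the block Cav2 fell by 0.52 (SE 0.10, adjusted p = 0.0116). The adjusted p was under 0.05 in 9 of 9 blocked settings, which share their samples. Without the block, 1 library decided the size, with −0.18 without PNX replicate 3 and −0.97 without sham replicate 3. Both transcripts were lower in PNX, NM_016900 with log2 TPM ratios of −0.65 and −0.47 in the earlier and later deposit and NM_001277756 with −0.51 and −0.28. The count ratio of Cav2 to Cav1 overlapped between groups.

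Alveolar type 1 cells, the flat cells apposed to the capillaries, are rich in both caveolins. Their 6 markers summed to 5288, 5341 and 2225 CPM in the sham libraries and 3907, 3959 and 1126 CPM in PNX, with 4 lower and 1 higher with the block. These sums were lower in replicate 3 and lower in PNX inside each deposit, as Cav1 and Cav2 were, and their part in the result was not tested.

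All 10 other caveola genes were tested, and with the block 1 rose and 1 fell at an adjusted p under 0.05, beside 11.5% and 10.1% of all genes tested. Of the 10, 0 were called, and the median log2 fold change without the block was 0.04. Ehd4, an ATPase of the family that stabilises caveolar necks, was at 751, 757 and 724 CPM in the sham libraries and 575, 577 and 516 CPM in PNX and fell with the block (log2 fold change −0.44, adjusted p = 0.0234, and 0.360 without it). Prkcdbp (cavin 3) went the other way, from 28.1, 30.1 and 19.9 CPM to 43.9, 47.6 and 39.1 CPM (log2 fold change 0.80 with the block, adjusted p = 0.00225, against 0.79 and 0.273 without it). Ptrf (cavin 1), the coat protein that caveolae require, overlapped at 315 to 462 CPM in the sham libraries and 421 to 515 CPM in PNX (log2 fold change 0.29, adjusted p = 0.0983 with the block). Murc (cavin 4), a muscle gene, was at 1.21 to 1.44 CPM in the sham libraries and 0.726 to 0.947 CPM in PNX (adjusted p = 0.107 with the block).

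**Figure D5:**
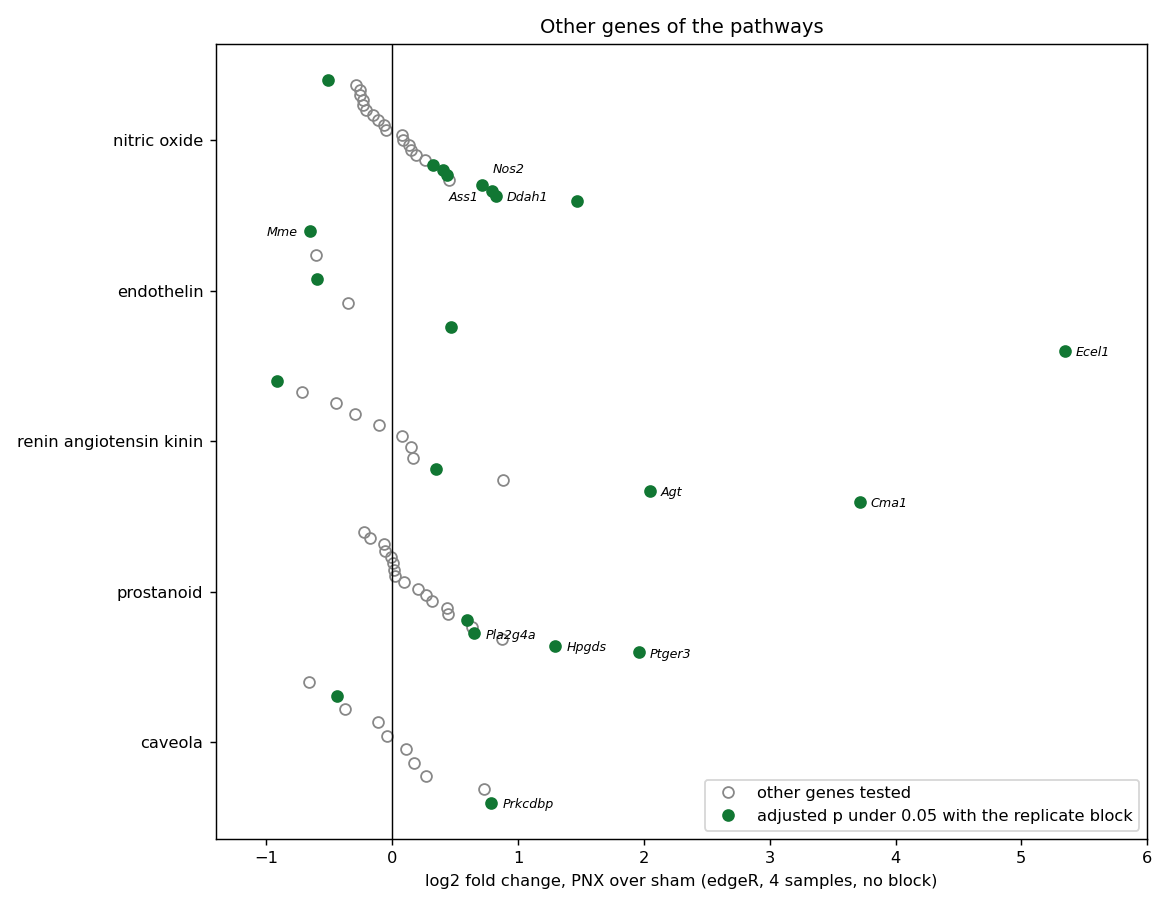
Log2 fold change of the other genes of the 5 pathways, PNX over sham without the block, 1 point per gene tested, filled green where the adjusted p with the replicate block was under 0.05. Most genes lie between −1 and 1, some of the filled points are named, and the far ones to the right (Ecel1, Cma1, Agt, Ptger3) are genes of low level.

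The genes whose pattern over the 6 libraries was most like that of the 3 members with the largest changes in the fit without the block (Edn1, Ptgis and Cav2) were picked by the root mean square (RMS) difference of log2 CPM, each gene centred on its mean, among 14287 genes. For Edn1 they were Klf15 (RMS difference 0.0754), Inmt (0.0943) and Cacna2d4 (0.121). Klf15 was at 14.2, 15.3 and 7.85 CPM in the sham libraries and 5.37, 5.76 and 2.20 CPM in PNX. Inmt, an indole methyltransferase, was at 772, 765 and 499.7 CPM in the sham libraries and 371, 362 and 136 CPM in PNX. For Ptgis they were Rin1 (0.0425), Pvrl2 (0.0443) and Hdgf (0.0447), with Hdgf at 83.0, 84.1 and 72.2 CPM in the sham libraries and 127, 128 and 134 CPM in PNX. For Cav2 they were Ccdc85a (0.0459), Lmo7 (0.0623) and Zxdb (0.0738). Over only 6 libraries, 4 of which are near pairs, such likeness is a description of these libraries.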

How the data were processed

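RNA-seq counts, TPM and FPKM per RefSeq transcript were deposited by the authors for each of 6 libraries, aligned to mm10 (GRCm38). The submitters' processing notes name STAR without a version. How reads were assigned, whether strand was used and which annotation release served is not given in the sources used here, although the library kit keeps the strand. The deposited counts were summed per gene symbol, the deposited TPM were summed per symbol and taken for the strongest transcript, and the deposited FPKM were not used. The 10 genes, the pathway and marker lists and the tests were chosen with earlier results of these data known, so no list is independent evidence.

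Counts were analysed in R 4.3.3 with edgeR 4.0.16 (TMM scaling, filterByExpr on low counts, glmQLFit and glmQLFTest), with p-values adjusted by the Benjamini-Hochberg method over 16598 genes. The standard error was the size of the fold change over the square root of F. It therefore carries the variance used by the test, which with the block is drawn largely from other genes. DESeq2 1.42.0 and limma-voom (limma 3.58.1) were alternatives, as were other scalings, no filter, the strongest transcript, 6 libraries as replicates and leaving out each library. The script was tested on simulated data. The labels mark replicates 1 and 2 as taken from an earlier deposit. Across 13005 genes, the gap between deposits was alike in both groups (Pearson's r of 0.755 and Spearman's rho of 0.761). Genes are not independent replicates. The deviations of same-numbered libraries from their group means correlated at 0.728, 0.725 and 0.775. As replicates 1 and 2 of a group differ little, these values restate the gap between deposits and cannot show that the numbers pair libraries. The block over 4 samples is the deposit, and blocked values are printed because the deposits differed alike in both groups. With 6 libraries the block was the replicate number.

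Named beside the 10 genes were, from each pathway list, the gene of highest TPM in sham, up to 3 genes with the largest fold change among those averaging 50 or more counts whose groups did not overlap, and fixed partners (Ednrb, Ptgir, Agtr1a, Tbxas1, Ptges, Ptrf, Gucy1a3 and Gucy1b3). Some genes that this rule names are not reported here. Likeness used the 3 genes nearest to each of 3 members. At 29526989 to 81282871 counts a library, each of the 10 genes had 800 or more counts in every library. Positions are from GENCODE vM21 (GRCm38) and promoters from RefSeq (GRCm38.p6), whose table held 8 of the 10 genes, not Nos3 and Ptgis.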

Additional observations from a re-analysis of the deposited data

Results flagged for a closer look

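For 4 of the genes named, PNX was above sham in the earlier deposit and below it in the later one. The log2 ratio of PNX to sham CPM in the earlier and the later deposit was 0.38 and −0.52 for Ednra, 0.41 and −0.12 for Agtr1a, 0.26 and −0.57 for Gucy1a3, and 0.14 and −0.86 for Gucy1b3. With 1 sample of each group in a deposit, these differences between deposits were not tested. The summed level of the 14 smooth muscle and pericyte markers gave log2 ratios of 0.36 and −0.46 in the same deposits, and the part of these cells in the result was not tested.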

How the results depend on the processing

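Without the block, edgeR called 0 genes under each scaling, without the filter and with the strongest transcript, and 0 to 2 with a library left out (2 without PNX replicate 3), and of the 10 members it called 0 in all of these. Genes called numbered 849 with the replicate block, 409 with 6 libraries as replicates, 920 with 6 libraries and the replicate block, 587 with DESeq2 on 4 samples and 927 with DESeq2 on 6 libraries. With the replicate block they numbered 624 with DESeq2 size factors, 646 with upper-quartile scaling, 629 with library size alone, 726 with the strongest transcript, 815 with DESeq2, and 671, 668, 485 and 863 without sham replicate 1, sham replicate 2, PNX replicate 1 and PNX replicate 2; 3584 passed an adjusted p under 0.05 with any fold. The split of blocked calls into higher and lower genes was 645 and 204 with TMM, 540 and 84 with DESeq2 size factors, 548 and 98 with scaling to the upper quartile, and 550 and 79 when only library size was used. Settings with the block but without replicate 3 could not be fitted.

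Of the 10 members, 1 (Edn1) was called in every setting with the replicate block and with DESeq2 on 6 libraries, and 0 with 6 libraries as replicates or DESeq2 on 4 samples; 6 passed an adjusted p under 0.05 with the replicate block and any fold. With the block Edn1 ranged from −1.51 to −1.49 (adjusted p 0.000196 to 0.00560) and without it from −1.76 to −0.91 (adjusted p 0.252 to 0.638). The blocked fits over 4 samples turned no member's direction. The pathway lists held 5 called genes with the block, 4 with 6 libraries, 5 with 6 libraries and the block, 4 with DESeq2 on 4 samples, 6 with DESeq2 on 6 libraries, 4 or 5 under the other blocked settings, and 22 at an adjusted p under 0.05 with the block. Of all genes tested, 5.12% were called with the block.

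The log2 fold change of Ednra reversed to 0.13 with 6 libraries, 0.12 with 6 libraries and the block and 0.12 with DESeq2 on 6 libraries, and ranged from −0.043 to 0.27 with a library left out (0.10 without sham replicate 3 and 0.27 without PNX replicate 3); the cause was not tested. For the strongest transcript alone the sham level was 869.3 TPM for Ace and 1121 TPM for Cav1, against 2555 and 2202 TPM for the sums. In all, 310 values were graded as unchanged, 12 as newly called, 57 as moved and 5 as reversed. The rule of a grade differed between fitted changes, counts of genes, levels and changes within a deposit. For a fitted change, unchanged means the same direction and the same side of the call. As 0 members were called without the block, Nos3 was graded as unchanged although its adjusted p went from 0.460 to 0.0314 with the block. Each group had 2 samples and the block left 1 residual degree of freedom. Blocked p-values therefore rest largely on the variance of other genes. The effect of depth was not tested.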
